A study of Mus musculus with 32 samples.

Results

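The interferon-stimulated genes described here are 51 mouse genes that type I interferon is known to induce, taken by symbol from a table of 45706 gene rows, where each symbol matched 1 row. Their levels are given across 32 RNA sequencing libraries of BV-2, a mouse microglial cell line, in 8 groups of 4. Wild-type BV-2 cells had received vehicle or lipopolysaccharide (LPS), which comes from the outer membrane of bacteria and activates microglia through the receptor Tlr4, at 10 ng/ml for 24 h. Within each of these conditions, the cells were transfected with a scramble control or with a microRNA (miRNA) mimic, a synthetic duplex that stands in for a mature miRNA, here miR-7a-5p, miR-29a-3p or else miR-146a-5p. All 8 groups therefore carried a transfected RNA, and no untransfected group was analysed here. The labels place the transfection after LPS and the methods of the study place it before, so the order is not settled. Because this is bulk RNA of a single cell line, more responding cells and more RNA per responding cell cannot be told apart.

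Type I interferons are secreted proteins that bind the receptor pair Ifnar1 and Ifnar2. The receptor activates the kinases Jak1 and Tyk2, which phosphorylate STAT factors, and these join Irf9 in a complex that binds a DNA element called the interferon-stimulated response element (ISRE) near the start of its target genes. In microglia and other macrophages, LPS is known to start this programme through Tlr4, Trif and Irf3, which induce interferon beta. The products of the target genes block the entry, replication or release of viruses, and some, such as Usp18, restrain the pathway again. The GTPases of the Gbp and Irg families respond to interferon gamma as well as to type I interferon.

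Some facts of the libraries bear on every value below. The totals ranged from 1203229 estimated counts in replicate 4 of the vehicle miR-7a group to 20831277 in replicate 4 of the LPS scramble group. Levels are in CPM (counts scaled to a common library size), with each total adjusted by a TMM scaling factor. By the totals before this adjustment, 3 counts stood for 2.49 and 0.144 CPM in these libraries, respectively. Their TMM factors were 0.666 and 1.07. On the scale of the levels, 3 counts thus stood for more than 2.49 and less than 0.144 CPM. Small structural RNA genes took 35.0 to 37.0% of the counts in replicates 2 to 4 of the vehicle miR-7a group and 2.59 to 18.9% in the other 29 libraries. The 12 microglia and macrophage markers had a summed level of 2892 to 5254 CPM in the 32 libraries. The homeostatic microglia markers P2ry12, Tmem119 and Cx3cr1 were low, with medians of 4.99, 2.74 and 0.601 CPM. The labels name the cell type glioblastoma. The astrocyte markers Gfap, Aqp4, Aldh1l1 and Gja1 were below 1 CPM in every group, and Slc1a2 reached 1.19 CPM, with a median of 0.404 CPM. Of the oligodendrocyte markers, Mbp ranged from 1.07 to 16.2 CPM over the libraries, and its part in the results was not tested. In the deposited table, decimal marks were missing and were restored by a model, and 13 of the 1611 values above 0 of these genes had a reading with a posterior probability below 0.9. A gene with such a value in the libraries compared was left out of that comparison.

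The mature sequences of the 3 miRNAs are shown because each mimic stands for 1 of them and the seed, bases 2 to 8 in capitals, is the part that pairs with target transcripts. They come from RefSeq (GRCm38.p6) and share no seed. Mature miR-7a-5p is encoded at chr7:78888295-78888317 (plus strand) and chr13:58392841-58392863 (minus strand), miR-29a-3p at chr6:31062673-31062694 (minus strand) and miR-146a-5p at chr11:43374435-43374456 (minus strand).
miR-7a-5p: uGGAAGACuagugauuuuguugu
miR-29a-3p: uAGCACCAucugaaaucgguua
miR-146a-5p: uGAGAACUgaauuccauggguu

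The genes lay on 14 chromosomes, and many sit beside a relative, such as Ifit1 (chr19:34640871-34650009, plus strand), Ifit2 (chr19:34550694-34576419, plus strand) and Ifit3 (chr19:34583531-34588731, plus strand). Rsad2 (chr12:26442746-26456452, minus strand) and Cmpk2 (chr12:26469204-26479837, plus strand) are neighbours that point away from each other. Of the 51 genes, 18 overlapped another annotated gene, 15 of them a gene on the other strand, such as Parp9 and Dtx3l. How reads were assigned to strands is not given in the sources used here, so the reads of such partners may not be separable. Oas1a and Oas1g, Phf11b and Phf11d, Trim30a and Trim12c, the Ifit genes and the Schlafen genes have close relatives, and their estimated counts can depend on how shared reads were divided.

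RefSeq promoter windows (GRCm38.p6), which span 250 bases before to 50 bases after each start, matched 41 of the 51 genes. The ISRE-type letters GAAA, any pair of bases and again GAAA, read on either strand, occurred in the windows of 17 of these 41 genes (41.5%), against 1079 of 27025 genes with a window (3.99%). TTCNNNGAA, the palindromic gamma-activated site, occurred in 8 of 41 (19.5%) against 9.55%. A match is a description of the letters and not a bound site. The following 30-base stretches of the gene strand are shown because the values of these genes are given below and they stand for several of the role groups. Capitals mark this pattern or its reverse complement, which starts with TTTC.
Isg15, chr4:156200871-156200900 (minus strand): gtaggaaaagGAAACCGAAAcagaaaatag
Ifit3, chr19:34583397-34583426 (plus strand): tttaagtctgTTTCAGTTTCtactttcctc
Ifit1, chr19:34640775-34640804 (plus strand): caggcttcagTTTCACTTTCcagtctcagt
Rsad2, chr12:26456553-26456582 (minus strand): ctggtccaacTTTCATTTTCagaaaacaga
Bst2, chr8:71537577-71537606 (minus strand): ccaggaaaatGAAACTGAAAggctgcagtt
Oas1a, chr5:120907520-120907549 (minus strand): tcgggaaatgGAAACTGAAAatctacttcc
Oas1g, chr5:120887606-120887635 (minus strand): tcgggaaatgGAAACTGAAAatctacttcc
The stretches of Oas1a and Oas1g are identical. In Isg15, Ifit3, Ifit1, Bst2, Oas1a and Oas1g, the window held at least 1 further match, in some cases overlapping the one shown.

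The first comparison asked how LPS changed these genes in cells with the scramble control. Of the 51 genes, 44 rose and 0 fell in limma-voom, against 9.77% of the 12308 genes tested that rose and 8.49% that fell. A gene was called, and is said to have risen or fallen, when its Benjamini-Hochberg adjusted p over all genes was below 0.05 and its log2 fold change was above 0.3 or below -0.3. The value after ± beside a fold change is its standard error (SE). The median log2 fold change was 1.82 over the 51 genes and 0.01 over all genes tested, and 44 of the 51 lay among the tenth of genes with the highest fold change. The 4 LPS libraries lay above the 4 vehicle libraries without overlap for 43 of the 51 genes, against 11.8% of the genes tested. The low-count filter took both groups together. A gene near 0 with vehicle could thus pass through the LPS group alone. Such a gene could rise but hardly fall, here and in the other comparisons of LPS with vehicle. In the vehicle scramble group, Ifit3, Ifi44, Ifit1, Ifitm3 and Slfn5 held 5, 7, 10, 14 and 14 summed counts. No count without such genes is given here.

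The median level of the 51 genes, as log2(CPM + 0.5), was 3.74, 3.72, 4.07 and 4.32 in the 4 vehicle scramble libraries (3.96 ± 0.29, SD, n = 4) and 5.88, 5.85, 5.99 and 5.71 in the 4 LPS scramble libraries (5.86 ± 0.12, n = 4). Every LPS library thus stood above every vehicle library. The summed level was 1656 ± 172.1 CPM with vehicle and 3778 ± 532.4 CPM with LPS (SD, n = 4 each). In the plot of the median level by library, the vehicle and LPS libraries stand apart.

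**Figure D1:**
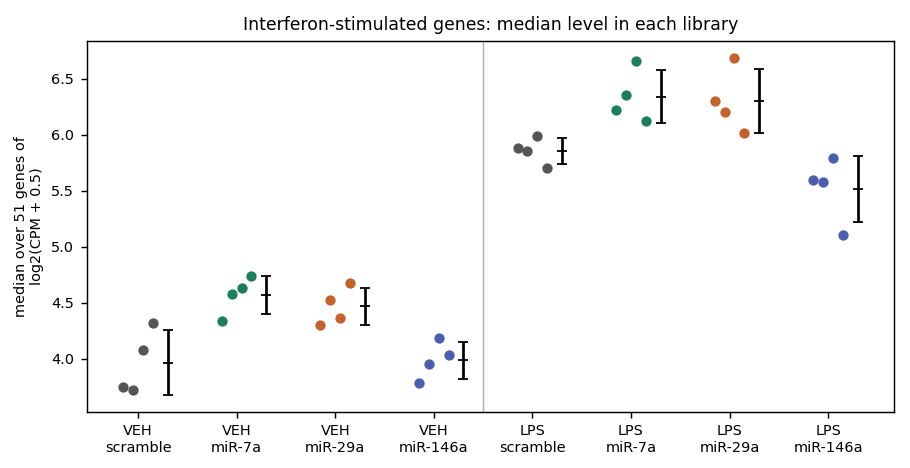
Median over the 51 interferon-stimulated genes of log2(CPM + 0.5), on the vertical axis, in each of the 32 libraries, by group on the horizontal axis. Points are libraries, and the bar beside them is the mean ± SD of 4 libraries. The LPS groups, at 5.10 to 6.69, lie above the vehicle groups, at 3.72 to 4.74, and under LPS the miR-7a and miR-29a libraries, at 6.02 to 6.69, lie above the scramble libraries, at 5.71 to 5.99.

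Ifit3, which binds viral RNA together with Ifit1, showed the largest rise with LPS. Its level, in replicates 1 to 4, was 0, 0.288, 0.742 and 0.114 CPM with vehicle and 17.9, 17.4, 23.4 and 10.1 CPM with LPS. The vehicle values rested on 5 counts summed over the 4 libraries, so the fitted value (log2 fold change 5.93 ± 0.71, adjusted p = 0.000239) depends on the prior count. For Ifi44 (chr3:151730922-151749960, minus strand), an antiviral protein of the cytoplasm, the levels were 0, 0.288, 0 and 0.684 CPM with vehicle and 13.1, 10.7, 14.7 and 8.63 CPM with LPS. The groups did not overlap, and the vehicle group held 7 counts in all (log2 fold change 5.59 ± 0.60, adjusted p = 0.000119). Rtp4 (chr16:23520291-23614222, plus strand), a chaperone of membrane receptors, stood at 0.472, 0, 0.99 and 1.71 CPM with vehicle and 21.7, 19.2, 38.4 and 19.2 CPM with LPS (log2 fold change 5.09 ± 0.66, adjusted p = 0.000398). Replicate 3 was the highest of the LPS libraries, and the groups did not overlap.

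All 9 genes of the Ifit and OAS families rose. Log2 fold changes in these families were 1.67 to 5.93, with a median of 2.45. The oligoadenylate synthetases make the second messenger that activates RNase L. Oas3, the member of these families with the highest mean log2 CPM, was at 21.2, 52.4, 36.6 and 53.6 CPM with vehicle and 169, 221, 251 and 199.9 CPM with LPS, without overlap (log2 fold change 2.45 ± 0.26, adjusted p = 0.000121). Oasl2, a related protein of the family, rose by 4.40 ± 0.30, while Oas1a and Oas1g rose by 1.67 ± 0.18 and 1.69 ± 0.30 on the log2 scale.

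Among the other antiviral effectors, 9 of 10 rose. Rsad2 (viperin), which makes a chain-terminating nucleotide, rose by 3.95 ± 0.34, its neighbour Cmpk2, a mitochondrial nucleotide kinase, by 3.36 ± 0.54, and the membrane protein Ifitm3, which blocks virus entry, by 4.46 ± 0.87 on the log2 scale. The dynamin-like GTPases Mx1 and Mx2 rose by 2.73 ± 0.53 and 1.87 ± 0.37. Bst2 (tetherin; chr8:71534255-71537456, minus strand), which holds budding virus at the cell surface, was already abundant with vehicle. Its level was 67.9, 160.4, 125 and 126 CPM with vehicle and 195, 195, 245 and 176 CPM with LPS, without overlap (log2 fold change 0.84 ± 0.23, adjusted p = 0.0293). Per kilobase of exon, Bst2 had the highest level of the 51 genes in both groups, at 133.0 ± 42.5 CPM per kb with vehicle and 224.6 ± 32.5 CPM per kb with LPS, whereas Mx1 was at 0.214 ± 0.146 and 1.28 ± 0.556 CPM per kb. Znfx1, a helicase, gave log2 fold change 0.40 ± 0.17, adjusted p = 0.123 and was not called.

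Isg15 is a ubiquitin-like protein that is attached to other proteins by a chain of enzymes. Of the 10 genes of Isg15 conjugation and ubiquitin ligation, 6 rose, among them Isg15 itself by 3.98 ± 0.64, its protease Usp18 by 2.15 ± 0.29 and the ligase Herc6 by 1.83 ± 0.23. The activating enzyme Uba7 gave log2 fold change 0.20 ± 0.19, adjusted p = 0.496, and the conjugating enzyme Ube2l6 gave log2 fold change 0.33 ± 0.16, adjusted p = 0.167. Trim25, a ubiquitin ligase of the RIG-I pathway and the gene of the group with the highest mean log2 CPM, was at 197, 324, 224 and 254 CPM with vehicle and 226, 301, 269.6 and 199.7 CPM with LPS. The groups overlapped (log2 fold change 0.02 ± 0.19, adjusted p = 0.955). The antibody receptor Trim21 (0.26 ± 0.26) was not called either, while Trim30a and Trim12c rose by 3.42 ± 0.26 and 2.26 ± 0.24.

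The remaining families mostly rose. All 3 PARP genes rose, with Parp9 at 70.3, 40, 58.1 and 59 CPM with vehicle and 97.6, 103, 106 and 77.6 CPM with LPS, without overlap (log2 fold change 0.77 ± 0.18, adjusted p = 0.0143). Of the nuclear and chromatin factors, 6 of 6 rose, from Pml, the scaffold of nuclear bodies, at 0.79 ± 0.20 to Phf11b at 2.99 ± 0.26. Helz2, a coactivator and the member of this group with the highest mean log2 CPM, stood at 41.7, 101, 52.2 and 74.1 CPM with vehicle and 143, 169.7, 229.8 and 161 CPM with LPS, without overlap (log2 fold change 1.47 ± 0.25, adjusted p = 0.00212). The 3 Schlafen genes rose, with Slfn5 at 4.02 ± 0.39. Slfn2 was at 65.2, 27.1, 93.3 and 61.5 CPM with vehicle and 97.2, 127, 148 and 109 CPM with LPS (log2 fold change 1.07 ± 0.29, adjusted p = 0.0273). In the last group, 8 of 10 rose, and Lgals3bp, a secreted glycoprotein, was at 83.3, 120.1, 116 and 129 CPM with vehicle and 219, 282, 263 and 213 CPM with LPS (log2 fold change 1.15 ± 0.17, adjusted p = 0.000872). Neither Tor3a (-0.17 ± 0.15) nor Shisa5 (0.55 ± 0.19) was called.

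With each mimic present, LPS was again compared with vehicle. These 4 comparisons share no library. With miR-7a, 39 of 47 genes rose, against 2.98% of the genes tested that rose and 4.1% that fell. With miR-29a, 43 of 49 rose, against 13.6% that rose and 13.4% that fell, and with miR-146a 32 of 46 rose, against 3.01% that rose and 1.59% that fell. None of the interferon-stimulated genes fell in these comparisons. Median log2 fold changes were 1.78, 1.83 and 1.33. Of 44 genes tested in all 4 arms, 26 rose in each of them, as did 149 of the 11179 genes tested in all 4 (1.33%). Oasl2 rose by 4.40 ± 0.30 with scramble and by 4.22 ± 0.35, 3.80 ± 0.22 and 3.78 ± 0.32 with the mimics of miR-7a, miR-29a and miR-146a, respectively. Rsad2 rose by 3.95 ± 0.34, 4.19 ± 0.37, 5.15 ± 0.30 and 3.33 ± 0.26, in the same order. The vehicle miR-7a libraries with much structural RNA touch the first of these counts, and with replicate 1 as the only vehicle miR-7a library 19 of 50 genes rose, against 0.494% of the genes tested.

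The mimic comparisons asked whether each miRNA changed these genes relative to the scramble control within LPS. All 3 share the same 4 LPS scramble libraries, so their results are not independent of each other. Uncertain readings left out Ifit1 with miR-7a, Ifit3 and Ifitm3 with miR-29a and Ifitm3 with miR-146a. With miR-7a, 15 of 50 genes rose and 0 fell, against 1.71% of 13068 genes tested that rose and 1.27% that fell. With miR-29a, 17 of 49 rose and 0 fell, against 2.3% of 13329 genes that rose and 2.87% that fell. With miR-146a, 0 of 50 rose and 2 fell, against 0.816% of 12618 genes that rose and 1.62% that fell. The median log2 fold changes of the genes were 0.55, 0.58 and -0.30, in this order. Log2 fold changes above 0 were found for 46 of 50, 44 of 49 and 8 of 50 genes.

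**Figure D2:**
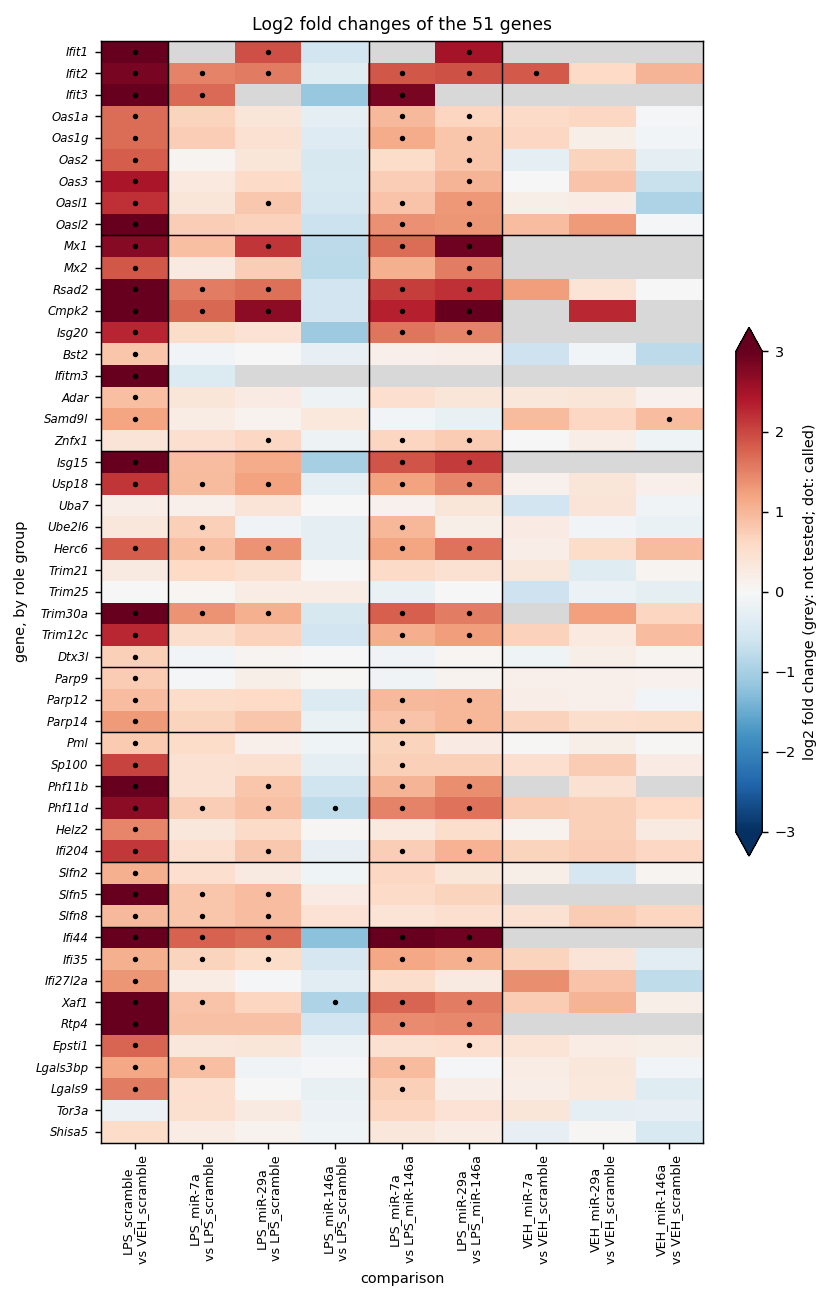
Log2 fold changes of the 51 genes (rows, by role group, separated by lines) in 9 comparisons (columns), coloured from blue (lower) to red (higher) on a scale that saturates at both ends. A dot marks a gene that was called, and grey marks a gene that was not tested. The first column, LPS against vehicle, holds 44 dots, the miR-7a and miR-29a columns under LPS hold 15 and 17, and the miR-146a column holds 2.

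In the LPS miR-7a libraries, the median level of the 51 genes was 6.22, 6.35, 6.66 and 6.13 as log2(CPM + 0.5) (6.34 ± 0.23, SD, n = 4), and all 4 lay above the 4 LPS scramble libraries. The summed level was 5017, 5456, 7206 and 4726 CPM, with replicate 3 the highest. Ifi44 stood at 37.9, 36.9, 60.4 and 24.9 CPM, above all 4 LPS scramble libraries (log2 fold change 1.76 ± 0.27, adjusted p = 0.00835). Cmpk2 was at 13.4, 8.76, 12.3 and 5.77 CPM with scramble and 38.8, 26, 53.4 and 14.2 CPM with miR-7a. Replicate 4 of the miR-7a group lay close to the scramble range (log2 fold change 1.73 ± 0.40, adjusted p = 0.044). Ifit3 was at 43.5, 41.6, 114 and 33.6 CPM, where replicate 3 stood apart from the others (log2 fold change 1.69 ± 0.38, adjusted p = 0.0394). The calls of Cmpk2 and Ifit3 were each lost in 7 of the 8 fits without 1 library, and that of Cmpk2 also with uncertain readings kept.

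The other genes that rose with miR-7a were the antiviral enzyme Rsad2 (1.52 ± 0.29), Ifit2 (1.49 ± 0.27), Trim30a (1.34 ± 0.19), the Isg15 protease Usp18 (0.95 ± 0.23), the ligase Herc6 (0.90 ± 0.21), the conjugating enzyme Ube2l6 (0.72 ± 0.13), Xaf1 (0.85 ± 0.18), Slfn8 (0.84 ± 0.20), Slfn5 (0.83 ± 0.16), Phf11d (0.75 ± 0.17), Ifi35 (0.66 ± 0.16) and Lgals3bp (0.89 ± 0.16). Ube2l6 had not been called for LPS against vehicle with scramble. Lgals3bp was at 364, 472, 581 and 426 CPM with miR-7a, above each LPS scramble library (log2 fold change 0.89 ± 0.16, adjusted p = 0.0143). By contrast, Bst2 was at 166, 169.8, 262 and 178 CPM and overlapped the scramble libraries (log2 fold change -0.09 ± 0.17, adjusted p = 0.832), and Parp9 was at 104, 89.4, 95.5 and 80.9 CPM (log2 fold change -0.06 ± 0.13, adjusted p = 0.87). The plot of single genes by library shows Ifi44, Cmpk2 and Ifit3 in all 8 groups.

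**Figure D3:**
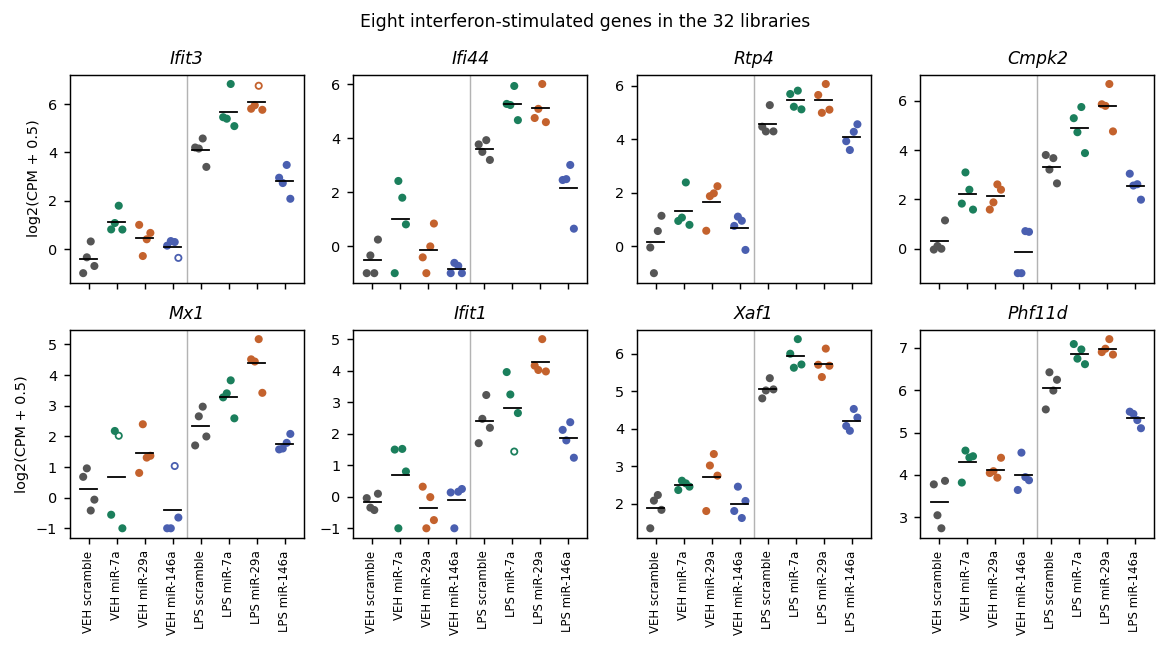
Level of 8 interferon-stimulated genes as log2(CPM + 0.5), on the vertical axis, in the 32 libraries, by group on the horizontal axis. Points are libraries, lines are means of 4, and a hollow point is a value whose restored decimal mark was uncertain. Under LPS, the miR-7a and miR-29a libraries of Ifi44 and Xaf1 lie above the scramble libraries, and those of miR-146a lie below the scramble libraries for Ifi44, Xaf1 and Phf11d.

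The miR-29a libraries under LPS had median levels of 6.30, 6.20, 6.69 and 6.02 (6.30 ± 0.28, SD, n = 4), again above the 4 LPS scramble libraries. The summed level was 5247, 5626, 6750 and 4588 CPM. Cmpk2 showed the largest rise, to 57.8, 55.2, 103 and 26.6 CPM, above all 4 LPS scramble libraries (log2 fold change 2.68 ± 0.41, adjusted p = 0.00627). Mx1 (chr16:97447035-97462907, minus strand) was at 2.76, 5.79, 7.33 and 3.49 CPM with scramble and 22.4, 21.2, 35.6 and 10.2 CPM with miR-29a, without overlap (log2 fold change 2.14 ± 0.40, adjusted p = 0.0131). Ifit1 was at 2.76, 5.07, 8.91 and 4.07 CPM with scramble and 17.5, 15.8, 31.7 and 15.3 CPM with miR-29a, where replicate 3 was the highest (log2 fold change 1.92 ± 0.33, adjusted p = 0.0101).

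Further genes that rose with miR-29a were Ifi44 (1.67 ± 0.32), Rsad2 (1.65 ± 0.25), Ifit2 (1.55 ± 0.25), Herc6 (1.36 ± 0.17), Usp18 (1.20 ± 0.19), Trim30a (1.07 ± 0.22), Slfn5 (0.93 ± 0.19), Slfn8 (0.92 ± 0.20), Phf11d (0.88 ± 0.17), Phf11b (0.83 ± 0.14), Oasl1 (0.82 ± 0.18), the DNA sensor Ifi204 (0.80 ± 0.21), Znfx1 (0.62 ± 0.15) and Ifi35 (0.56 ± 0.14). Of the synthetases, Oas3 was at 248, 355, 339 and 324 CPM, where the lowest miR-29a library fell within the scramble range (log2 fold change 0.58 ± 0.15, adjusted p = 0.0503). Lgals3bp was at 219, 276, 198 and 219.9 CPM (log2 fold change -0.10 ± 0.14, adjusted p = 0.721) and overlapped scramble. The 3 PARP genes were not called with miR-7a or with miR-29a, at median log2 fold changes of 0.55 and 0.59, with Parp14 at 0.66 ± 0.22 and 0.83 ± 0.29.

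The replicate numbers paired the libraries in the miR-7a and miR-29a comparisons, and with the number as a block in limma-voom 33 of 50 genes rose with miR-7a (against 4.58% of the genes tested) and 30 of 49 with miR-29a (against 4.54%). Without the block, the counts changed when 1 library was left out. The shares of all genes called in fits without 1 library are not reported here or below. Those counts therefore show only how far the calls depended on single libraries. For miR-7a, the count was 5, 9, 8 and 2 without LPS scramble replicates 1, 2, 3 and 4, and 8, 7, 5 and 18 without LPS miR-7a replicates 1 to 4, while the median log2 fold change stayed within 0.46 to 0.62. For miR-29a, it was 11 without LPS scramble replicate 1, 7 without LPS scramble replicate 4 and 13 to 19 without any other library, with a median of 0.50 to 0.69.

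In the LPS miR-146a libraries, the median level was 5.60, 5.58, 5.79 and 5.10 (5.52 ± 0.29, SD, n = 4), so that replicate 3 reached the LPS scramble range and the other 3 lay below it. The summed level was 3098, 3488, 3753 and 2791 CPM against 3484, 3949, 4442 and 3236 CPM with scramble, and these ranges overlapped. In summed and in median level, each miR-146a library lay below the scramble library of the same replicate number. By the rule used here, the numbers did not pair all libraries of this comparison (lowest correlation 0.084). Xaf1 (chr11:72301629-72313733, plus strand), a partner of the apoptosis inhibitor Xiap, was at 27.6, 32, 40.3 and 32.7 CPM with scramble and 16.4, 14.9, 22.6 and 19.2 CPM with miR-146a, without overlap (log2 fold change -0.91 ± 0.17, adjusted p = 0.024). Phf11d (chr14:59347407-59365470, minus strand), a PHD finger protein, was at 46.2, 85.2, 63.1 and 75.3 CPM with scramble and 44.5, 42.9, 38.7 and 33.8 CPM with miR-146a, also without overlap (log2 fold change -0.77 ± 0.17, adjusted p = 0.0395). For 6 of the 50 genes the miR-146a libraries lay wholly below the scramble libraries, against 5.63% of the genes tested. DESeq2 called 6 of 50 genes lower (3.19% of the genes tested), and edgeR 1 (1.02%). The count was 0 without any one of LPS scramble replicates 3 and 4 and LPS miR-146a replicates 1, 2 and 3, and 1 without LPS miR-146a replicate 4. The median log2 fold change was -0.45 without LPS scramble replicate 4 and -0.19 without LPS scramble replicate 3, the lowest and highest without 1 library.

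Other genes with low fold changes in the miR-146a comparison did not pass the threshold. Ifi44 was at 4.96, 5.08, 7.53 and 1.06 CPM (log2 fold change -1.22 ± 0.38, adjusted p = 0.121), and Ifit3 was at 7.24, 6.14, 10.7 and 3.73 CPM (log2 fold change -1.13 ± 0.35, adjusted p = 0.12). The values were log2 fold change -0.99 ± 0.44, adjusted p = 0.273 for Isg15 and log2 fold change -1.09 ± 0.37, adjusted p = 0.153 for the exonuclease Isg20. At the other end, Slfn8 gave log2 fold change 0.43 ± 0.24, adjusted p = 0.393 and Samd9l log2 fold change 0.31 ± 0.17, adjusted p = 0.38. Oas3 was at 108, 179, 196 and 141 CPM and overlapped scramble (log2 fold change -0.46 ± 0.19, adjusted p = 0.227).

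**Figure D4:**
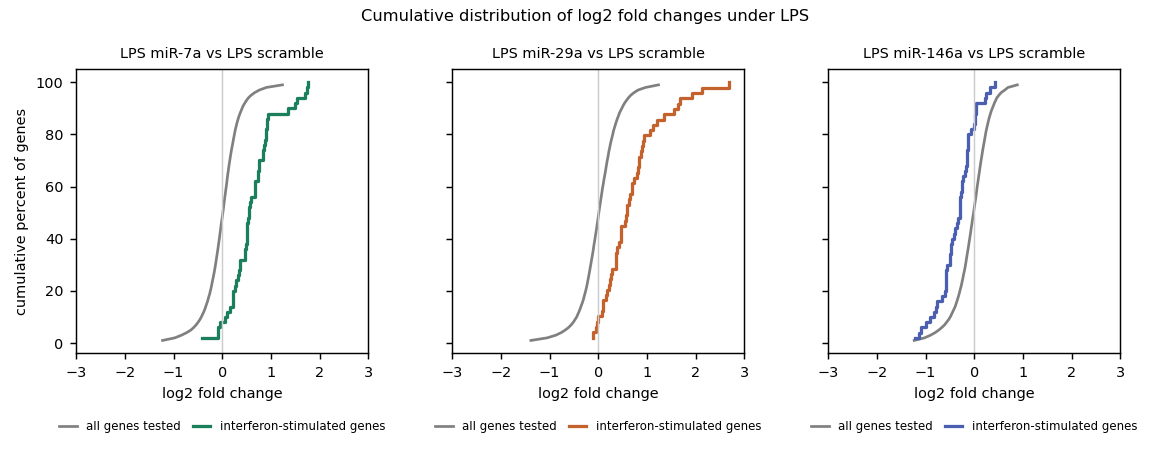
Cumulative percent of genes (vertical axis) by log2 fold change against scramble under LPS (horizontal axis), for the interferon-stimulated genes tested (coloured steps) and for all genes tested (grey), with 1 panel per mimic. The coloured steps lie to the right of the grey curve for miR-7a and miR-29a, with medians of 0.55 and 0.58, and to its left for miR-146a, with a median of -0.30.

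Set among all genes tested, 34 of 50 genes (68%) lay in the tenth with the highest fold change for miR-7a, and 27 of 49 (55.1%) for miR-29a. For miR-146a, 17 of 50 (34%) lay in the tenth with the lowest fold change and 1 in the highest. The 4 mimic libraries lay wholly above the 4 scramble libraries for 23 of 50 genes with miR-7a and 21 of 49 with miR-29a, against 5.96 and 7.02% of the genes tested. The plot of cumulative fold changes shows these shifts.

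The mimics were also compared with each other under LPS. Between miR-7a and miR-146a, 30 of 49 genes were higher with miR-7a and 0 lower, against 3.84% of the genes tested that were higher and 2.69% that were lower. Between miR-29a and miR-146a, 29 of 49 were higher with miR-29a and 0 lower, against 5.49 and 6.65%. The median log2 fold changes were 0.86 and 0.84. The first count was 19 without LPS miR-7a replicate 3. Phf11d, at 136, 107, 124 and 97.3 CPM with miR-7a and 119, 126, 147 and 114 CPM with miR-29a, lay above the 4 miR-146a libraries in both (1.49 ± 0.15 and 1.62 ± 0.14). Xaf1 was at 63.6, 49, 83.5 and 52 CPM with miR-7a and 51.8, 41.2, 70 and 50.8 CPM with miR-29a (1.74 ± 0.22 and 1.54 ± 0.22 against miR-146a), and Rsad2 differed by 2.08 ± 0.25 and 2.20 ± 0.21.

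Between miR-7a and miR-29a, 2 of 48 genes differed, both higher with miR-7a, against 2.41% of the genes tested that were higher and 1.38% that were lower. These were Lgals3bp (log2 fold change 1.00 ± 0.16, adjusted p = 0.00742) and Ube2l6 (log2 fold change 0.83 ± 0.13, adjusted p = 0.00621). Mx1 was at 9.16, 10.1, 13.7 and 5.52 CPM with miR-7a, and its difference from miR-29a did not pass (log2 fold change -1.21 ± 0.37, adjusted p = 0.0957). The median log2 fold change of the 48 genes was -0.06, and it was 0.03 without LPS miR-7a replicate 4 and 0.07 without LPS miR-29a replicate 3. A fold change that misses the threshold does not show that both mimics gave the same level.

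Under vehicle, levels were lower, and 38 of the 51 genes could be tested for miR-7a, 41 for miR-29a and 39 for miR-146a. The median level was 4.34, 4.57, 4.63 and 4.74 with miR-7a, 4.30, 4.53, 4.36 and 4.67 with miR-29a, and 3.78, 3.95, 4.18 and 4.03 with miR-146a. The miR-7a values all lay above those of scramble, those of miR-29a overlapped them at 1 library, and those of miR-146a overlapped throughout. The 3 comparisons share the vehicle scramble libraries. In the order of these mimics, median log2 fold changes were 0.30, 0.38 and 0.03 (-0.01, 0.0007 and -0.04 over all genes tested), and 30 of 38, 35 of 41 and 21 of 39 genes lay above 0. With miR-7a, 1 of 38 genes rose (0.162% of the genes tested), Ifit2, by 1.85 ± 0.27, and it was not called without vehicle scramble replicate 4 or with replicate 1 as the only vehicle miR-7a library. With miR-146a, 1 of 39 rose (1.08%), Samd9l, a translation inhibitor, by 0.93 ± 0.22. Without any one library the count in either direction was 0, except for 6 without vehicle scramble replicate 1, where the share of all genes is not reported here. With miR-29a, limma-voom called 0 of 41 (0.0171% of the genes tested in either direction), edgeR 0 and DESeq2 2 (0.411% of the genes tested higher), while 16 of the 41 had an unadjusted p below 0.05, as did 1232 of 11666 genes. The smallest adjusted p values with miR-29a were those of Cmpk2 (log2 fold change 2.27 ± 0.46, adjusted p = 0.127) and Oasl2 (log2 fold change 1.27 ± 0.30, adjusted p = 0.208). Cmpk2 was at 0.472, 0.576, 0.495 and 1.71 CPM with scramble and 2.5, 3.17, 5.59 and 4.75 CPM with miR-29a.

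Whether the mimic effect differed between LPS and vehicle was tested with an interaction term. None of the genes passed in limma-voom, out of 47 tested for miR-7a, 49 for miR-29a and 47 for miR-146a, against 0.0821, 0.0242 and 0.00807% of the genes tested in either direction. At an unadjusted p below 0.05 there were 4, 8 and 10 genes, respectively, beside 660 of 12187, 816 of 12393 and 1390 of 12395 genes. DESeq2 called 0, 0 and 2 (the 2 lower, as were 0.145% of the genes tested), and edgeR 0 in each. The genes with the smallest adjusted p were Lgals3bp (log2 fold change 0.65 ± 0.24, adjusted p = 0.694) and Trim25 (log2 fold change 0.67 ± 0.26, adjusted p = 0.75) for miR-7a, Ifit1 (log2 fold change 2.62 ± 0.99, adjusted p = 0.65) and Tor3a (log2 fold change 0.56 ± 0.21, adjusted p = 0.65) for miR-29a, and Trim12c (log2 fold change -1.54 ± 0.30, adjusted p = 0.327) and Phf11d (log2 fold change -1.37 ± 0.35, adjusted p = 0.327) for miR-146a. The effects under LPS were therefore not shown to differ from those under vehicle.

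Matches to the seeds were counted in the longest annotated 3′ UTR of each gene. The letters GTCTTCC, which pair with the miR-7a-5p seed, occurred in 7 of the 51 genes (13.7%), TGGTGCT for miR-29a-3p in 3 (5.88%) and AGTTCTC for miR-146a-5p in 9 (17.6%). Among genes tested with a 3′ UTR, the shares were 15.2, 17.1 and 13.7%. The 7 genes with a miR-7a match were Phf11d (0.75), Mx1 (0.91), Parp14 (0.66), Phf11b (0.46), Uba7 (0.16), Oas2 (0.09) and Bst2 (-0.09), with log2 fold changes for miR-7a under LPS in parentheses, of which Phf11d was called. The 3 genes with a miR-29a match were Rsad2 (1.65), Tor3a (0.28) and Trim25 (0.23), with those for miR-29a. The 9 with a miR-146a match were Xaf1 (-0.91), Ifi44 (-1.22), Trim12c (-0.57), Ifit2 (-0.36), Znfx1 (-0.16), Adar (-0.15), Pml (-0.13), Uba7 (0.02) and Trim25 (0.22), with those for miR-146a. Phf11d, the other gene that fell with miR-146a, had no match. The site of Xaf1, bases 560 to 566 of a 3′ UTR of 1727 bases, is shown because this gene fell. Capitals mark the letters that pair with the seed.
Xaf1 site: tcttttcttcccaatAGTTCTCtgctttca

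The genes upstream of this programme were read from the same fits. Of the 18 type I interferon genes listed, 17 had a row, and none had enough counts to be tested in any comparison. For interferon beta (Ifnb1) the 4 LPS scramble libraries held 0 counts, and 1 count was found in the LPS miR-29a group. In the LPS scramble libraries 3 counts stood for 0.144 to 1.10 CPM by the totals before TMM adjustment. Ifnb1 was thus not detectable at this depth. Of the receptor chains and Janus kinases, 1 of 6 tested, Jak2, rose with LPS in the scramble arm (log2 fold change 0.94 ± 0.24, adjusted p = 0.0186), where 9.77% of all genes rose. LPS against vehicle gave 0 of 7 with miR-7a (2.98% of all genes), 3 of 7 with miR-29a (Ifnar2, Jak1 and Jak2; 13.6%) and 0 of 7 with miR-146a (3.01%). For the genes of this list and of the lists that follow, the interaction terms in limma-voom did not show that the response to LPS differed between arms. Jak2 also rose with miR-29a against scramble under LPS (log2 fold change 0.56 ± 0.12, adjusted p = 0.0245), as 1 of 7 (2.3% of all genes). In the scramble arm, Ifnar1 (0.21 ± 0.14) and Ifnar2 (0.46 ± 0.16) did not pass.

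The STAT and IRF factors carry the signal to the nucleus. In the scramble arm, Irf7, which amplifies the interferon response, was at 9.75, 20.4, 20.5 and 32.5 CPM with vehicle and 222, 365, 325 and 235 CPM with LPS (log2 fold change 3.86 ± 0.31, adjusted p = 1.78e-05). Irf9 (1.46 ± 0.17), Stat2 (0.83 ± 0.19) and Stat3 (0.70 ± 0.15) rose as well, and these 4 factors were also called higher with LPS in each of the mimic arms. Irf3 (-0.84 ± 0.24) and Irf5 (-0.68 ± 0.15) fell in the scramble arm, where 8.49% of all genes fell. Stat2 was at 39.6, 49.3, 43.7 and 33.3 CPM with scramble under LPS, 59.2, 81.4, 90 and 55.1 CPM with miR-7a and 99.6, 129, 112 and 87.8 CPM with miR-29a. It rose with both mimics (log2 fold change 0.76 ± 0.18, adjusted p = 0.0498 and log2 fold change 1.37 ± 0.16, adjusted p = 0.0018) and was at 40.1, 49.8, 43.9 and 35.2 CPM with miR-146a (log2 fold change 0.05 ± 0.15, adjusted p = 0.885).

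Of 16 nucleic acid sensors and adaptors, 8 rose and 0 fell with LPS in the scramble arm, where 9.77% of all genes tested rose. In the miR-7a, miR-29a and miR-146a arms, 6, 9 and 5 of the 16 rose with LPS (2.98, 13.6 and 3.01% of all genes). With miR-7a against scramble under LPS, 3 of 16 rose (1.71% of all genes), namely the sensor of Z-form nucleic acids Zbp1 (1.67 ± 0.28), the RNA receptor Tlr3 (1.43 ± 0.22) and Ddx58, the gene of RIG-I (0.77 ± 0.17). With miR-29a, 3 of 16 rose (2.3% of all genes), with Zbp1 at 1.32 ± 0.24, Tlr3 at 1.49 ± 0.22 and Ddx58 at 0.84 ± 0.20. With miR-146a, the DNA sensor gene Mb21d1 (cGAS) fell (log2 fold change -1.01 ± 0.22, adjusted p = 0.0366), and so did Socs3, an inhibitor of cytokine signalling (log2 fold change -0.68 ± 0.15, adjusted p = 0.0413). These were 1 of 16 sensors and 1 of 4 feedback inhibitors, against 1.62% of all genes that fell. Of the interferon-inducible GTPases, 7 of 7 tested rose with LPS in the scramble arm (9.77% of all genes). Against scramble under LPS, 6 of 12 rose with miR-7a (1.71%), 6 of 12 with miR-29a (2.3%) and 0 of 9 were called with miR-146a (0.816% higher and 1.62% lower). The low-count filter ran on each pair of groups, so these counts cover different genes. A gene could also pass it through the group where it was higher. Of the genes called, Gbp3 and Irgm1 (both mimics) and Irgm2 (miR-29a) were also tested in the scramble arm. Gbp7 and Iigp1 (both mimics), Gm4951 and Gbp4 (miR-7a) and Gbp5 (miR-29a) were not. Gbp3 rose by 1.12 ± 0.24 with miR-7a and 1.42 ± 0.23 with miR-29a. Between mimics, 8 of 11 were higher with miR-7a than with miR-146a (3.84% of all genes), and 10 of 11 were higher with miR-29a (5.49%).

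Target genes of NF-kappa-B, the other arm of the LPS response, were read from the same fits. Of 12 tested, 5 rose and 1 fell with LPS in the scramble arm, against 9.77 and 8.49% of all genes. With LPS, 0 of the 12 were called in the miR-7a arm (2.98% of all genes rose and 4.1% fell), 7 rose in the miR-29a arm (13.6%) and 2 rose in the miR-146a arm (3.01%). With miR-7a against scramble under LPS, the chemokine gene Ccl2 rose (2.39 ± 0.52), while Tnfaip3, an inhibitor of NF-kappa-B, and Ptgs2, the gene of cyclooxygenase, fell (-0.79 ± 0.19 and -1.47 ± 0.28), against 1.71% of all genes that rose and 1.27% that fell. With miR-29a, Tnf (1.01 ± 0.23) and Ccl2 (2.47 ± 0.46) rose (2.3% of all genes), and with miR-146a 0 of the 12 passed, where 0.816% of all genes rose and 1.62% fell. The median log2 fold changes of these 12 genes were -0.35, 0.18 and -0.20 in the order of the mimics above.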

How the data were processed

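RNA sequencing libraries of BV-2 cells in 8 groups of 4 were grouped by the labels. Per the labels and the methods of the study, ribosomal RNA was depleted (RiboCop), total RNA libraries (CORALL) were sequenced single-end, and the authors used nf-core rnaseq to count reads by gene on GRCm38. The quantifier, its settings and the annotation version are not given in the sources used here. The deposited values are estimated counts per gene that have lost their decimal marks, 1 per gene and library for 45706 genes. The libraries are stated to be independent experiments in the study but not in the labels, and the p-values measure the spread between them.

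Lost decimals (0 to 3 per value) were restored with a model that weighs the last digits and the level of the gene in related libraries. Of 590874 values above 0, 28.5% were given decimals and 1.20% had a posterior below 0.9, which left their gene out of comparisons of those libraries. The restoration and the tests were checked on simulated data. Restored values were rounded to whole counts for count models, filtered with filterByExpr, scaled by TMM and tested with limma-voom 3.58.1 with empirical Bayes moderation, two-sided, on the libraries of each comparison. The call needed a Benjamini-Hochberg adjusted p below 0.05 over all genes and an absolute log2 fold change above 0.3. The filter, TMM and the fit for each pair were taken from the study, whose own log transformation after TMM was not applied. The interaction fits used the 4 groups they name. Levels are CPM with TMM library sizes. No 2 libraries held identical values (0 pairs). A 3-count floor, given in CPM by the totals before TMM adjustment, covers counting error only.

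Replicate numbers were taken to pair libraries where each of the 4 correlations of same-numbered libraries' deviations from their group means exceeded 0.1. This held for LPS against vehicle with scramble (lowest 0.117) and with miR-29a (0.155), and for miR-7a (0.211) and miR-29a (0.221) against scramble under LPS. The alternatives were edgeR 4.0.16 quasi-likelihood, DESeq2 1.42.0, RLE scaling, no low-count filter, the block, each library left out, uncertain readings kept and a posterior minimum of 0.99. Tests without structural RNA genes, and with replicate 1 as the only vehicle miR-7a library, were added after seeing the data. Values per library are given for the 3 genes with the largest change called in each direction in each comparison with scramble under LPS and in LPS against vehicle, and for the gene with the highest mean log2 CPM (not corrected for length) in each of 7 role groups; where none was called, the 2 with the smallest adjusted p are named. The genes and lists were chosen with earlier results of these data known. Promoter windows and miRNAs came from RefSeq tables of GRCm38.p6, and gene positions and 3′ UTRs from an annotation of GRCm38. Values of some genes on the marker and pathway lists are not reported here.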

Additional observations from a re-analysis of the deposited data

Results flagged for a closer look

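For 15 genes and the median level, the 4 libraries of each group were screened for a library far from the other 3, by Dixon's ratio against its 95% critical value. Of 128 groups, 12 held such a library, where chance gives about 1 in 20. Replicate 3 was the high library in 10 of the 12. In the LPS miR-7a group, replicate 3 stood at 113.6 CPM for Ifit3 (others 33.6 to 43.5) and 262.4 CPM for Bst2 (others 166.5 to 177.7). In the LPS miR-29a group, it stood at 31.7 CPM for Ifit1 (15.3 to 17.5), 107.9 CPM for Ifit3 (53.9 to 61.5; its decimal mark was uncertain) and 166.8 CPM for Slfn2 (134.9 to 139.7). In the LPS miR-146a group, it stood at 188.5 CPM for Bst2 (162.2 to 166.6) and 140.1 CPM for Slfn2 (99.9 to 103.6). Rtp4 was at 38.4 CPM in LPS scramble replicate 3 (19.2 to 21.7) and at 4.75 CPM in vehicle miR-7a replicate 3 (1.25 to 1.61). The others lay at low levels: Ifit1 at 0 CPM in vehicle miR-146a replicate 2 (0.601 to 0.688), Mx1 at 1.55 CPM in vehicle miR-146a replicate 3 (0 to 0.138; its decimal mark was uncertain) and Cmpk2 at 1.71 CPM in vehicle scramble replicate 4 (0.472 to 0.576).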

How the results depend on the processing

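The counts of called genes among the 51 moved by over 1.5 times in 45 cases and not in 238, and the medians moved by more than the spread between libraries in 1 case and not in 282. None of the genes named for the largest changes changed sign. Of the 283 medians, 12 had the other sign, within smaller differences than that spread: 8 for miR-146a under vehicle (-0.06 to -0.0025, against 0.03), 2 between miR-7a and miR-29a (0.03 and 0.07, against -0.06), 1 in the miR-7a interaction (-0.02, against 0.11) and 1 in the miR-29a interaction (-0.0038, against 0.14). A further 26 medians changed by over 1.5 times, all in these 4 comparisons, the miR-146a interaction (-0.16 without LPS scramble replicate 3, against -0.28) and miR-146a under LPS (-0.45 and -0.19, against -0.30). With the replicate number as a block, limma-voom called 33 genes for miR-7a under LPS, 30 for miR-29a and 15 for miR-146a, all lower (5.68% of the genes tested), 7 between miR-7a and miR-29a (9.44% in either direction), and, under vehicle, 4 for miR-7a (1.89% higher), 1 for miR-29a (0.343% higher) and 4 for miR-146a (7.76% in either direction); it moved no other count by this much. In the miR-146a comparison under LPS the numbers did not pair all libraries (lowest correlation 0.084). DESeq2 called 6 genes for miR-146a under LPS, 3 for miR-7a (1.19% higher), 2 for miR-29a and 6 for miR-146a (11% in either direction) under vehicle, 4 between miR-7a and miR-29a (6.82% in either direction), and 2 in the miR-146a interaction. edgeR called 1 for miR-146a under LPS and 2 under vehicle (1.37% higher). With uncertain readings kept, miR-146a under vehicle gave 0. With replicate 1 as the only vehicle miR-7a library, assumed to vary like the other group, miR-7a under vehicle gave 0, and LPS against vehicle with miR-7a gave 19 genes and a median of 2.09. Leaving out 1 library gave 2 to 18 genes for miR-7a under LPS, 7 to 19 for miR-29a, 0 to 2 for miR-146a, 0 to 2 and 0 to 6 for miR-7a and miR-146a under vehicle, 19 to 30 between miR-7a and miR-146a, and 0 to 1 in the miR-146a interaction (1 without vehicle scramble replicate 1). LPS against vehicle with scramble gave 40 to 45. Of the named calls, Cmpk2 and Ifit3 for miR-7a were lost in 7 of 8 such fits, with log2 fold changes of 1.42 to 2.10 and 1.29 to 1.91 over the 8, Xaf1 and Phf11d for miR-146a in 5 and 7 (-1.05 to -0.81 and -0.87 to -0.66), and Mx1 and Ifit1 for miR-29a without LPS scramble replicate 4. Cmpk2 for miR-7a was also lost with uncertain readings kept, and Phf11d for miR-146a in edgeR. Besides smaller groups, the cause of these changes was not tested. Depth limited the vehicle groups most, where 3 counts stood for 0.311 to 2.49 CPM by the totals before TMM adjustment.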
